A study of Saccharomyces cerevisiae with 7 samples.

Results

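The transcripts of the plasma membrane proton pump of budding yeast, Saccharomyces cerevisiae, and of its partners were followed across 7 one-colour Affymetrix arrays. The 6 genes were taken by symbol from the platform annotation: PMA1 (YGL008C), its paralogue PMA2 (YPL036W), the proteolipids PMP1 (YCR024C-A) and PMP2 (YEL017C-A), and the kinases HRK1 (YOR267C) and PTK2 (YJR059W). All 6 were found, with 1 probe set each, among 5449 measured genes. PMA1 was chosen by its measured signal, which was higher in sth1-3 than in wild type cells at 37C in earlier results of these data. The others were taken as its paralogue, its proteolipids and the kinases linked to its activation. For that reason every difference of PMA1 is given below as a description without a test, as is every member's difference between sth1-3 and wild type at 37C.

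The study asks which transcripts depend on Scc2, a subunit of the cohesin loader, and on Sth1, the ATPase of the chromatin remodeller RSC. Cultures in rich medium (YP, 2% glucose) had reached an OD600 of 0.25 when those of the 37C samples were moved from 25C to 37C, where they stayed for 2 h. Wild type cells were of strain YK700, mating type a, and carried ura3-52, trp1-1, ade2-1, can1-100, his3-11,15 and leu2-3, 112, with GAL and psi+. There was 1 wild type array at 25C and there were 2 at 37C. The scc2-4 cells (2 arrays, 37C) were of strain Y4251, mating type a, with the tagged alleles Sth1-9myc::URA3 and Scc1-Pk9::TRP1. The sth1-3 cells (2 arrays, 37C) were of strain Y4343, mating type alpha, with Scc2-Pk9::TRP1, the mutation being written sth1-3ts in the genotype. Each genotype was thus represented by a single strain, and the labels do not say whether replicate arrays came from separate cultures.

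Pma1 is a P-type ATPase that uses ATP to pump protons out of the cell, and it is among the most abundant proteins of the yeast plasma membrane. The gradient it builds drives the uptake of nutrients through proton-coupled carriers and keeps the cytosol near neutral pH. Pma2 is a closely related pump that is normally expressed at a low level, Pmp1 and Pmp2 are very small membrane proteins that copurify with Pma1 and stimulate it, and Ptk2 and Hrk1 are protein kinases linked to activation of the pump when glucose is present.

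Values are log2 signals, in which a difference of 1 is a doubling, and a gene counted as above background on an array when it exceeded the 95th percentile of the Schizosaccharomyces pombe probe sets there (9.94 to 10.07). The arrays fell into a set of 3 (wild type at 25C and replicate 1 of either mutant), with bacterial hybridisation controls averaging 12.25 to 12.53, and a set of 4 (both wild type 37C arrays and replicate 2 of either mutant), at 11.52 to 11.72. For the 25S ribosomal RNA, the signal of the 3' end minus that of the 5' end was 3.03 to 4.16 on arrays of the first kind and 0.30 to 0.69 on the others. The same measure overlapped between the sets for the 18S ribosomal RNA (-1.16 to -0.58 against -1.35 to -1.05) and for ACT1 (-0.31 to 0.32 against 0.21 to 1.60). SCC2 and STH1 lay below background on every array, and their mutations alter the proteins, so their transcripts do not check the labels.

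PMA1 was bright on 5 of the 7 arrays and low on both wild type 37C arrays. It measured 11.40 on the wild type 25C array. The values of wild type 37C replicates 1 and 2 were 9.67 and 8.26. In scc2-4 it measured 11.37 and 9.99 on replicates 1 and 2, and in sth1-3 11.79 and 10.65. Every mutant array was thus above both wild type arrays at 37C, and the scc2-4 and sth1-3 arrays overlapped each other. Neither wild type 37C array exceeded background, whereas both arrays of either mutant did, scc2-4 replicate 2 by 0.021.

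In order of level, PMA1 stood at 11.40 in wild type at 25C (n = 1), 11.22 ± 0.81 in sth1-3, 10.68 ± 0.98 in scc2-4 and 8.97 ± 1.00 in wild type at 37C (SD, n = 2 each). The first 3 levels differed from their neighbours by less than 1 SD, and wild type at 37C lay 1.71 below scc2-4, more than 1 SD. The mean was higher than in wild type at 37C by 2.25 in sth1-3, at least 2.29-fold, and by 1.71 in scc2-4, at least 1.57-fold. Both bounds replace the wild type values by the background of their arrays, and both rest on replicate 1 of the mutant, from the 3-array set. Without it the bound for sth1-3 was 1.54-fold, and for scc2-4 there was none, since replicate 2 lay below the mean background of the wild type arrays (10.03). These comparisons share the wild type 37C arrays, on which replicate 1 exceeded replicate 2 in PMA1 by 1.41, by more than in 99.6% of genes.

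The level of PMA1 moved with the array set. In the 3-array set it lay between 11.37 and 11.79, at 11.52 ± 0.23 (SD, n = 3), and in the 4-array set between 8.26 and 10.65, at 9.64 ± 1.01 (SD, n = 4). The mean of the 3-array set was higher by 1.88, by more than in 98.5% of genes, and the median of that difference over all genes was 0.12. Within the 3-array set the sth1-3 array exceeded the wild type 25C array by 0.39, and the scc2-4 array lay below it by a difference of -0.026. Within the 4-array set sth1-3 exceeded wild type replicates 1 and 2 by 0.97 and 2.39, and scc2-4 exceeded them by 0.31 and 1.72. The low wild type values therefore came from the 4-array set alone, and the 3-array set holds no wild type array at 37C. With the array set as a term in the model, the difference from wild type at 37C was 1.62 for sth1-3 and 1.08 for scc2-4. The part of the array set in these values was not tested beyond that.

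**Figure D1:**
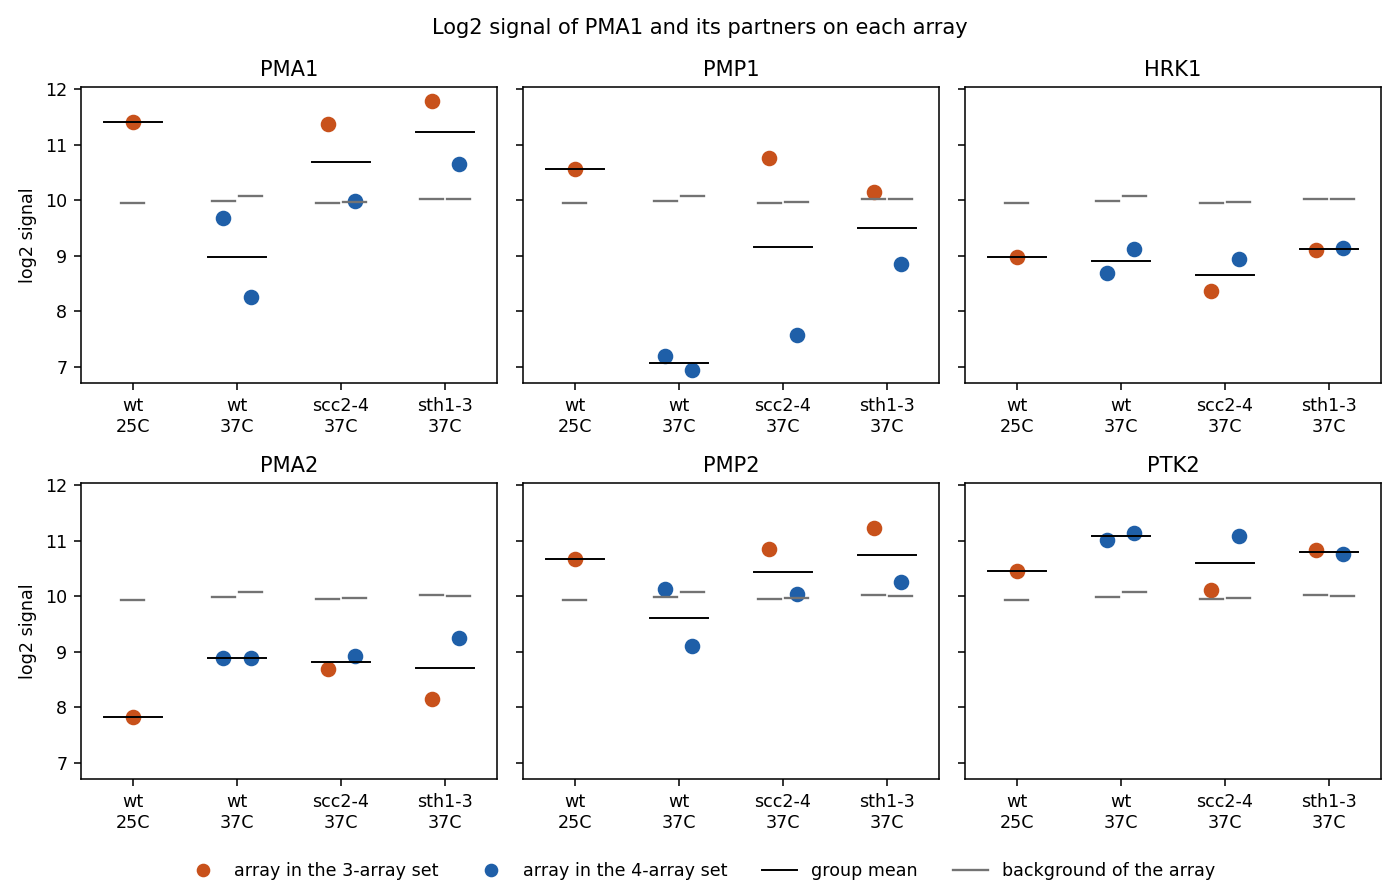
Log2 signal of each of the 6 genes (vertical axis) on every array, by group (horizontal axis; wt, wild type); points are single arrays coloured by array set, black lines are group means and grey lines the background of each array. PMA1 lies at 9.67 and 8.26 in wild type at 37C and between 9.99 and 11.79 on the others, while PMA2 and HRK1 stay below background throughout.

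PMA2, the paralogous pump, was below background on all 7 arrays. It measured 7.82 in wild type at 25C. In wild type at 37C it measured 8.89 on both arrays, in scc2-4 8.69 and 8.92, and in sth1-3 8.16 and 9.25. The wild type 37C and mutant groups overlapped, and the lowest values were on the 25C array and on sth1-3 replicate 1. Its set means were 8.22 ± 0.44 (SD, n = 3) and 8.99 ± 0.18 (SD, n = 4), lower in the 3-array set by a difference of -0.76, the opposite order to PMA1. No fold is given for PMA2, since no group rose above background.

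PMP1, the first of the small proteolipids, showed the widest range of the 6 genes. It measured 10.56 in wild type at 25C but 7.19 and 6.94 in wild type at 37C. In scc2-4 it measured 10.76 and 7.57, and in sth1-3 10.15 and 8.86, replicate 1 first. The 3 arrays above background were those of the 3-array set, and within the 4-array set sth1-3 was the highest. The set means were 10.49 ± 0.31 (SD, n = 3) and 7.64 ± 0.85 (SD, n = 4), so the 3-array set was higher by 2.85, by more than in 99.8% of genes.

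PMP2, which encodes the other proteolipid, was above background on 6 of 7 arrays. It measured 10.68 in wild type at 25C, and 10.12 and 9.10 in wild type at 37C. In scc2-4 it measured 10.85 and 10.04, and in sth1-3 11.23 and 10.26. The array below background was wild type 37C replicate 2, the one on which PMA1 was also lowest. Wild type 37C replicate 1 exceeded replicate 2 in PMP2 by 1.02, by more than in 98.2% of genes. All 3 arrays of the 3-array set, at 10.92 ± 0.28 (SD, n = 3), lay above the 4-array set, at 9.88 ± 0.53 (SD, n = 4).

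The kinase genes varied less. PTK2 was above background on all 7 arrays, at 10.46 in wild type at 25C, 11.01 and 11.15 in wild type at 37C, 10.11 and 11.08 in scc2-4, and 10.83 and 10.77 in sth1-3. Its lowest values were on the wild type 25C array and scc2-4 replicate 1, and both sth1-3 arrays lay below both wild type 37C arrays. HRK1 was below background on all arrays, between 8.36 on scc2-4 replicate 1 and 9.13 on sth1-3 replicate 2. Its range of 0.78 over the arrays was narrower than the median range of all genes, 1.03. The array sets overlapped in both kinase genes, whereas they did not overlap in the other 4 members. Over all genes the sets did not overlap in 21.6% with the 3-array set higher and in 14.0% with it lower.

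The comparison of scc2-4 with wild type at 37C asks which transcripts differ in the loader mutant, whose strain also carries tagged alleles. PMA1, PMP1 and PMP2 had higher means in scc2-4, and PMA2, HRK1 and PTK2 lower ones. Of the 5 partners tested, 0 were called by limma (adjusted p = 0.998 for each), against a background of 0% of the 5449 genes. At an unadjusted p under 0.05 there was 1 partner, PMP1, against 68 genes (1.25%). The estimated difference was 2.10 ± 0.90 (SE) for PMP1, 0.83 ± 0.50 for PMP2, -0.081 ± 0.41 for PMA2, -0.25 ± 0.35 for HRK1 and -0.49 ± 0.39 for PTK2. With the array set as a term these became 0.98 for PMP1, 0.39 for PMP2 and -0.26 for PTK2, and PMA2 turned to 0.25. Within the 4-array set scc2-4 replicate 2 differed from the wild type mean by 0.50 in PMP1, 0.43 in PMP2 and -0.0016 in PTK2. PMP1 was above background in scc2-4 only on replicate 1, the array of the 3-array set, and on no wild type 37C array, so the size of its difference cannot be read as a fold. Both scc2-4 arrays lay above both wild type arrays in 2 of the 6 genes, PMA1 and PMP1, as in 15% of all genes, and below them in 0 of the 6, against 14.1%. PMA1 was chosen by a comparison that shares these wild type arrays.

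In sth1-3 against wild type at 37C, the comparison that chose PMA1, the means of PMA1, PMP1, PMP2 and HRK1 were higher and those of PMA2 and PTK2 lower. The differences were 2.44 for PMP1, 1.14 for PMP2, 0.22 for HRK1, -0.19 for PMA2 and -0.28 for PTK2. PMP1 was above background on 1 sth1-3 array and on no wild type array. Apart from PMA1, which this comparison chose, PMP1 and PMP2 were higher without overlap and PTK2 was lower. Over all genes 18% were higher and 18.8% lower without overlap, and limma called 0% of genes. Within the 4-array set, sth1-3 replicate 2 exceeded the wild type mean by 1.79 in PMP1, 0.65 in PMP2, 0.36 in PMA2 and 0.24 in HRK1, and PTK2 lay at -0.31. With the array set as a term, the differences were 1.32 for PMP1, 0.69 for PMP2 and 0.14 for PMA2, whose sign thus turned. As in scc2-4, the same wild type arrays serve as control, so the mutants' values are not independent of each other.

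**Figure D2:**
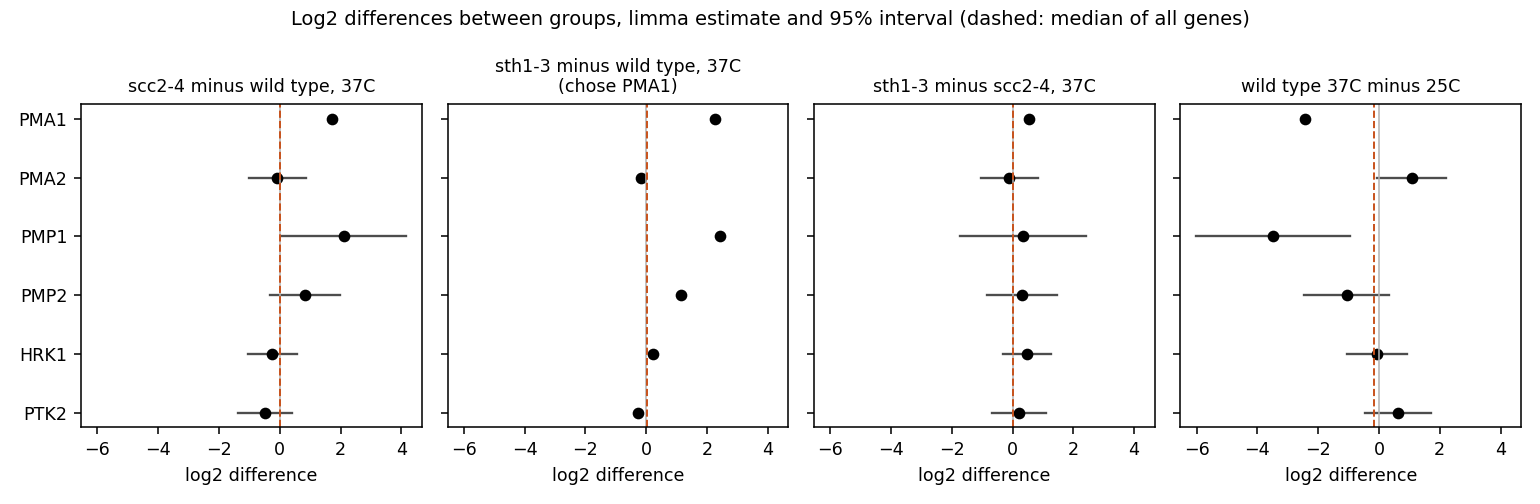
Log2 difference between groups (horizontal axis) for each gene (vertical axis) in the 4 comparisons; points are limma estimates, bars their 95% intervals, drawn only where a test applies, and the dashed line the median of all genes. PMA1 and PMP1 differ most from 0 wherever wild type at 37C takes part, at 2.25 and 2.44 in sth1-3, 1.71 and 2.10 in scc2-4, and -2.43 and -3.49 between the temperatures.

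The direct comparison of the mutants sets the remodeller mutant against the loader mutant, whose strains also differ in mating type and tagged alleles. In sth1-3 against scc2-4 the difference of PMA1 was 0.54, with 0.42 between the arrays of the 3-array set and 0.66 between those of the 4-array set. Of the 5 partners, 0 were called by limma (adjusted p = 1.00 for each) and 0 had an unadjusted p under 0.05, where 0% and 0.385% of genes did. The largest estimate among the partners was 0.47 for HRK1, with a 95% interval from -0.33 to 1.27, and it was the only member whose arrays did not overlap, higher in sth1-3 as 8.44% of all genes were, while 9.62% were lower without overlap. HRK1 was below background in both mutants. PMP1 went opposite ways in the array sets, by -0.61 in the 3-array set and by 1.29 in the 4-array set, and so did PMA2, by -0.54 and 0.33, and PTK2, by 0.72 and -0.31. The interval for PMP1 ran from -1.73 to 2.41, which includes a doubling in either direction, and that for PMP2 from -0.84 to 1.45, which includes a doubling in sth1-3.

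Wild type at 37C was compared with 25C across both the temperature shift and the array sets. PMA1, PMP1 and PMP2 were lower at 37C and PMA2 and PTK2 higher. The median of all genes was -0.17. The difference of PMA1 was -2.43, at least 2.59-fold lower, without a test, and -2.25 when every array was centred on its median gene. For the partners the estimates were -3.49 ± 1.10 (SE) for PMP1, at least 1.44-fold, -1.07 ± 0.61 for PMP2, 1.07 ± 0.50 for PMA2, 0.62 ± 0.47 for PTK2 and -0.071 ± 0.43 for HRK1. Of the 5 partners, 0 were called by limma (lowest adjusted p = 0.449), as were 0% of genes, and PMP1 alone had an unadjusted p under 0.05, as 10.2% of genes did. The arrays did not overlap in 3 members lower at 37C and 2 higher, where 50.1% of genes were lower and 31.1% higher without overlap. Those lower include PMA1, which was chosen by a comparison that shares the 37C arrays. The single 25C array lies in the 3-array set and both 37C arrays in the 4-array set, so temperature and array set cannot be told apart from the wild type arrays. The folds given as at least 2.59 and 1.44 allow for background only, and are no lower bounds on an effect of temperature. With the set as a term, which borrows its size from the mutants, the differences were -1.17 for PMA1, -1.25 for PMP1, -0.18 for PMP2 and 0.41 for PMA2.

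The pattern of PMA1 over the arrays was set beside that of 904 other genes above background on at least 2 arrays. The correlations describe 7 arrays that share their array sets, and carry no test. The 5 most alike were OLE1 (Pearson r = 0.978), which encodes the fatty acid desaturase, YPL245W (0.978), HOR7 (0.977), a gene induced by hyperosmotic stress, RPL19B (0.977), for a protein of the large ribosomal subunit, and PMP2 (0.976). OLE1 measured 10.69 in wild type at 25C, 8.79 and 6.73 in wild type at 37C, 10.34 and 9.19 in scc2-4, and 10.54 and 9.31 in sth1-3, so it was lowest on the same array as PMA1. OLE1 and YPL245W were above background on 3 arrays and RPL19B on 2, all of them in the 3-array set. With r above 0.9 there were 49 genes, or 5.42% of those compared. PMP1 correlated with PMA1 at 0.914, HRK1 at -0.197, PMA2 at -0.576 and PTK2 at -0.715.

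When the mean of each array set was subtracted first, the 5 most alike were RPL41A (0.984), RPS31 (0.982), RPL43A (0.970), RPS23A (0.970) and YPL245W (0.964). The first 4 encode ribosomal proteins, RPS31 as a fusion with ubiquitin, and RPL41A, RPL43A and RPS23A have near-identical copies whose RNA the probe sets may share. RPS31, RPL43A, RPS23A and YPL245W were above background on 3 arrays each, those of the 3-array set. In the 4-array set, where PMA1 varied more, all values of these genes were below background, which limits their correlations. RPL41A was above background on 4 arrays, of which sth1-3 replicate 2, at 10.21, lies in the 4-array set. PMP2 still followed PMA1 at 0.930, as number 14 of 904, and PMP1 at 0.734. PMA2, at -0.576 before, stood at 0.270, PTK2 at -0.246 and HRK1 at 0.068. Spearman's rho was 1 for 12 genes and 0.929 for PMP2.

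**Figure D3:**
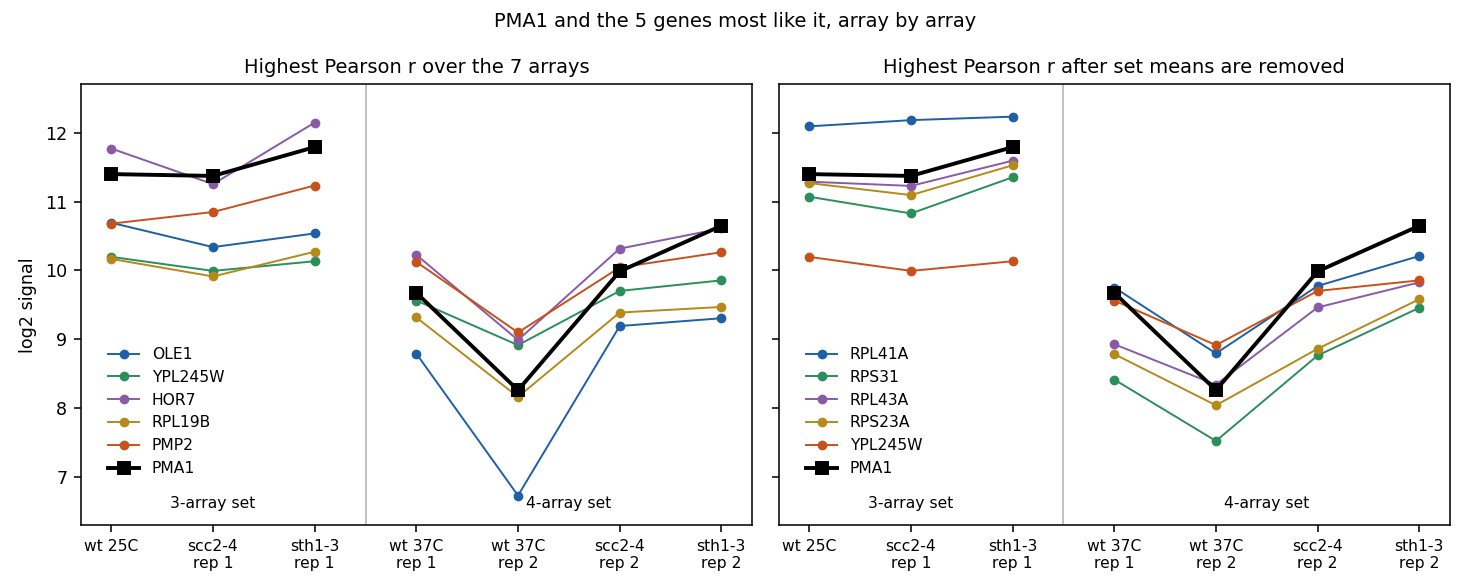
Log2 signal (vertical axis) of PMA1 and of the 5 genes most like it on each array (horizontal axis), over all arrays (left) and after the set means were removed for the ranking (right); lines join arrays of one set only to guide the eye. Wild type 37C replicate 2 is the lowest array for PMA1, at 8.26, and for each gene shown.

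Around the pump, 8 lists with 116 genes were examined, of which 111 were measured, 18 were above background on at least 2 arrays and 89 on none. No listed gene was called by limma in any of the comparisons, as 0% of all genes were. Their median difference from wild type at 37C was 0.11 in scc2-4, with 69 genes higher and 42 lower, and 0.16 in sth1-3, with 75 higher and 36 lower. The medians over all genes were -0.0051 and 0.030. Within the 4-array set the medians of the 111 were -0.0042 and 0.063, and those of all genes were -0.034 and -0.061.

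Proton-coupled nutrient transporters, the carriers that spend the gradient built by Pma1, had the largest median in sth1-3 among the lists, 0.55, with 17 of 20 higher. It was 0.23 within the 4-array set, and in scc2-4 the median was 0.23 and -0.051 within the set. Only 1 of the 20 exceeded background on at least 2 arrays. That gene was AGP1, a broad amino acid permease, at 10.30 ± 0.66 in sth1-3, 9.91 ± 0.14 in scc2-4, 9.86 ± 0.26 in wild type at 37C (SD, n = 2 each) and 10.51 at 25C. BAP2 and TAT1, permeases of branched-chain and aromatic amino acids, were the next brightest, and both mutant means of either gene were above the wild type 37C mean, by 0.36 to 0.96. TAT1 was below background on all 7 arrays and BAP2 on all but 1, a scc2-4 array, so these differences are not folds.

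The V-ATPase, which acidifies the vacuole, had 14 of 22 genes higher in sth1-3 (median 0.27) and 13 of 22 in scc2-4 (0.13). Within the 4-array set these medians were 0.076 and -0.025. VMA2, a subunit of its peripheral sector, was above background on all 7 arrays and steady, at 10.76 ± 0.073 in sth1-3, 10.84 ± 0.0048 in scc2-4, 10.55 ± 0.17 in wild type at 37C (SD, n = 2 each) and 11.05 at 25C. VMA3, a proteolipid of its membrane sector, was above background only in the 3-array set, whose mean was higher by 1.40, and VMA13, a regulatory subunit, lay between 9.54 and 10.51.

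Among the other P-type ATPases, 8 of 12 were higher in sth1-3 (median 0.25) and 7 of 12 in scc2-4 (0.18), with medians of 0.063 and 0.067 within the 4-array set. DNF2, a phospholipid flippase, was above background on all 7 arrays, at 10.48 ± 0.13 in sth1-3, 10.46 ± 0.39 in scc2-4 and 10.68 ± 0.38 in wild type at 37C (SD, n = 2 each). Its relative DNF1 and the copper pump gene CCC2 differed by array set in opposite directions, by -1.29 and 0.92. The kinase family of PTK2 and HRK1 had a median of 0.031 in sth1-3 and 0.012 in scc2-4 over 7 other genes, and of -0.13 and -0.16 within the 4-array set. Its brightest was PTK1, the paralogue of PTK2, at 9.61 ± 1.01, 9.73 ± 0.68 and 10.37 ± 0.35 in sth1-3, scc2-4 and wild type at 37C (SD, n = 2 each), above background only in the 4-array set. SAT4 and HAL5, kinases that regulate potassium uptake, were the next brightest, and HAL5 stayed below background.

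The 7 measured genes for maturation and regulation of Pma1 had medians of 0.053 in sth1-3 and 0.070 in scc2-4, and of -0.16 and 0.043 within the 4-array set. YCK2, a casein kinase of the plasma membrane, was the only one above background on any array, at 9.90 ± 0.30, 9.91 ± 0.11 and 9.84 ± 0.29 in sth1-3, scc2-4 and wild type at 37C (SD, n = 2 each). YCK1, its paralogue, and SOP4, which acts in the export of Pma1 from the endoplasmic reticulum, were below background throughout. Cation channels, transporters and exchangers had medians of 0.056 and -0.13 over 10 genes, and of -0.16 and -0.12 within the 4-array set. NHA1, an exporter of sodium and potassium in exchange for protons, measured 11.49 ± 0.33, 11.49 ± 0.015 and 11.60 ± 0.47 (SD, n = 2 each), while PHO89 and TRK2 stayed below background.

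The eisosome list, for the membrane domains from which Pma1 is absent, had medians of 0.11 in sth1-3 and 0.13 in scc2-4 over 12 genes, and of 0.064 and 0.082 within the 4-array set. PKH1, a sphingoid-base-responsive kinase, was above background on all 7 arrays, between 10.48 and 11.60, and SEG1 lay close to background, between 9.85 and 10.16. PUN1 was above background on 3 arrays and as low as 9.01 in wild type at 37C. Sphingolipid synthesis, which supports delivery of Pma1 to the surface, had medians of 0.24 and 0.27, with 15 and 17 of 21 genes higher. Within the 4-array set these were 0.17 and 0.049. LCB1, CSG2 and LCB2 were its brightest genes, and the first 2 were above background on 2 arrays each.

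**Figure D4:**
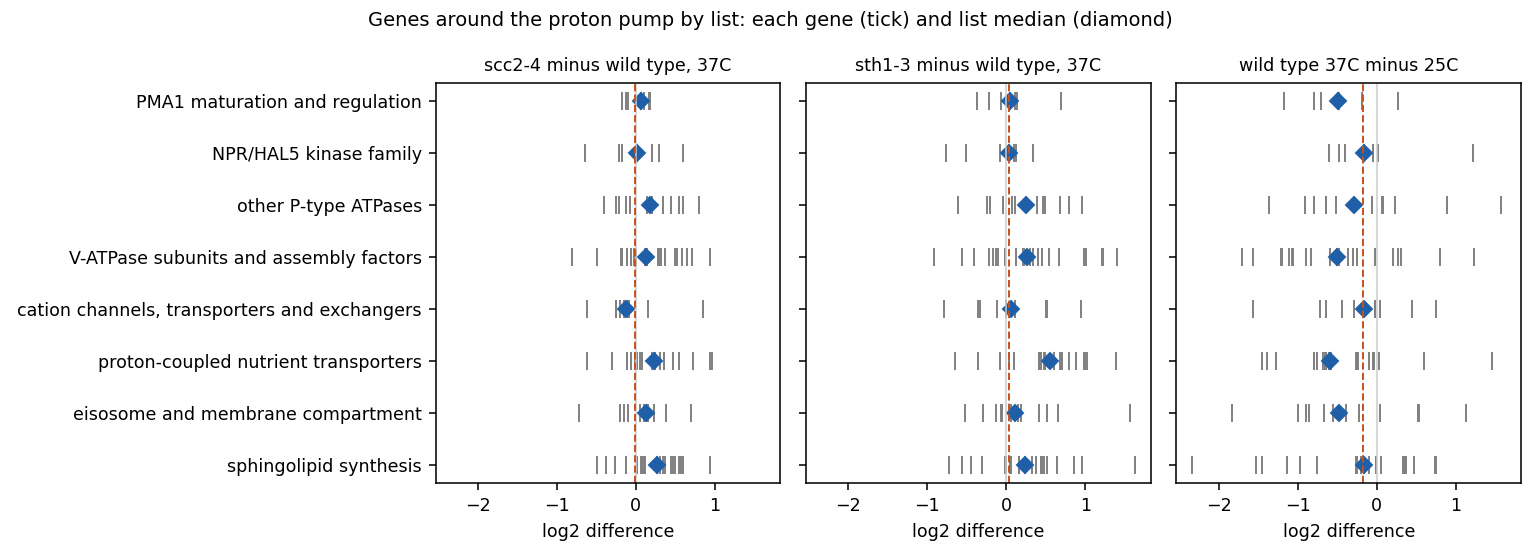
Log2 difference (horizontal axis) of each measured gene in the 8 lists (ticks) with the list median (diamonds) in scc2-4 and sth1-3 against wild type at 37C and in wild type at 37C against 25C; the dashed line is the median of all genes. List medians lie between -0.13 and 0.55 in the mutants and between -0.59 and -0.16 between the temperatures, where the median of all genes is -0.17.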

How the data were processed

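The authors deposited a log2 intensity for every probe set on each Affymetrix Yeast Genome 2.0 array. RMA and the affy package are named in the submitters' processing notes, without versions. RMA corrects background, equalises the arrays' distributions and summarises probes. Whether the 7 arrays were normalized together is not given in the sources used here. Values were used as deposited.

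Of 10928 probe sets, 5498 carried 1 S. cerevisiae symbol and 1746 1 S. pombe symbol. Where a gene had several, the brightest on average stood for it. No probe or genome sequences were used, so cross-hybridisation was not examined.

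Titles gave the groups. The 25C sample's growth protocol also describes the shift, so its temperature rests on its title and description. A limma fit over all 7 arrays gave each group a mean (limma 3.58.1, R 4.3.3), with 3 residual degrees of freedom, two-sided, with Benjamini-Hochberg adjustment over 5449 genes and a threshold of 0.05. The design assumes that the single 25C array varies like the others. An exact permutation test of 2 arrays against 2 cannot go below 0.333 and was not used. "At least" folds use the higher of background and signal on arrays of the dim group, and make no allowance for the array set. The code was tested on simulated data. Precision is limited by the number of arrays, and p-values reflect only the variation among these arrays, possibly technical.

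The members, gene lists, array sets and tests were chosen with earlier results of these data known. The rule for named genes took the 6 members, the 3 brightest genes of each list and the 5 genes most like PMA1 by 2 measures. Alternatives were a replicate block, other eBayes options, a filter on dim genes, 3 normalizations, the mean of probe sets, fitting only the groups compared, the array set as a term or its 4 arrays alone, leaving out each 37C replicate, the 90th percentile as background and Spearman's rho. Bounds without single replicates were added after seeing the data.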

Additional observations from a re-analysis of the deposited data

How the results depend on the processing

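The difference of PMA1 from wild type at 37C ranged from 1.00 to 2.42 in scc2-4 and from 1.54 to 2.96 in sth1-3 over 17 alternatives, several of which leave it as it is by construction, and both ends of either range come from leaving out a wild type replicate. Against 25C it ranged from -3.14 to -1.17 over 15 alternatives, the latter with the array set as a term, and without single replicates from -3.14 to -1.72. Between the mutants it ranged from -0.15 to 1.23 without single replicates, and the cause was not tested. Bounds on the fold of PMA1 without single replicates, chosen after seeing the data, ran from 1.54 to 3.40 in sth1-3, and from 1.53 to 2.54 in scc2-4 where one could be given.

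The number of genes called, 0 in each comparison, was 7 in scc2-4, 10 in sth1-3 and 4 between the temperatures with the array set as a term, and 6, 13 and 1 (scc2-4, sth1-3 and between the mutants) within the 4-array set. That fit holds a single array per mutant, so its residual spread is that of the 2 wild type arrays (1 residual degree of freedom). It was 911 between the temperatures when only wild type arrays were fitted, again with 1 residual degree of freedom. There PMP1, PMA2 and PMP2 were called, but temperature and array set coincide. Without single replicates the counts were 0 to 1 in scc2-4 and between the temperatures, and 0 otherwise. The replicate block on the 6 arrays at 37C called 1 gene in scc2-4 and 1 in sth1-3. Whether members were among the genes called in sth1-3 is left out for every setting, since that comparison chose PMA1. Deviations of same-numbered arrays correlated at 0.55 between the mutants and at -0.20 and -0.36 with wild type, and no label says that the numbers pair the arrays.

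Some signs changed. PMA2 in sth1-3 stood at 0.14 with the set term and 0.36 in the 4-array set, and from -0.73 to 0.36 without single replicates. PMA2 in scc2-4 stood at 0.25 with the set term and 0.032 in the 4-array set, and from -0.19 to 0.032 without single replicates. Without single replicates PMP2 in scc2-4 ranged from 0.32 to 1.35, PMP1 from 0.50 to 3.70 and PTK2 from -0.97 to -0.0016. HRK1 in scc2-4 stood at 0.042 in the 4-array set and from -0.54 to 0.042 without single replicates. HRK1 between the temperatures stood at 0.11 with median centring, 0.10 with quantile normalization and 0.069 with cyclic loess, and from -0.28 to 0.14 without single replicates. Between the mutants, PMA2 and PTK2 stood at 0.33 and -0.31 in the 4-array set, and without single replicates PMA2 ranged from -0.65 to 0.44, PTK2 from -0.28 to 0.69, PMP1 from -1.26 to 1.94 and PMP2 from -0.18 to 0.79. Within the sets, PMP2 differed by 0.38 in the 3-array set and by 0.22 in the 4-array set. PMA2 and HRK1 have no value under the filter on dim genes. In sth1-3 the set term moved PMP1 to 1.32 and PTK2 to -0.052. With the 90th percentile as background PMA1 was above it on 6 arrays. Of the 5 genes most like PMA1, 2 were among the 5 named by Spearman's rho and 1 within array sets. The low signal limits PMA2 and HRK1, below background everywhere.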
